A study of Arabidopsis thaliana with 14 samples.

Results

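The genes described here act at the RNA polymerase V step of RNA-directed DNA methylation in Arabidopsis. They were chosen by identifier, not by a rule on measured values, though with earlier results of these data known. They were 10 of the 37336 genes in the count files: DRD1 (AT2G16390), DMS3 (AT3G49250) and RDM1 (AT3G22680) of the DDR complex, RDM4 (AT2G30280), KTF1 (AT5G04290), IDN2 (AT3G48670), its partners FDM1 (AT1G15910) and FDM2 (AT4G00380), and the ATPase genes MORC1 (AT4G36290) and MORC6 (AT1G19100). In the TAIR10.1 reference MORC1 is listed as CRT1 and MORC6 as DMS11. All 10 passed the filter on low counts in both fits.

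Poly(A)+ RNA was sequenced from immature inflorescence buds (stages 1 to 12) of plants in the Columbia background, either wild type or carrying the allele aly1-2 of ALY1 (AT5G59950), a gene for an RNA-binding adaptor of mRNA export. Each genotype had 3 libraries of total, 2 of nuclear and 2 of cytoplasmic RNA, which made 14, and no treatment was given. The labels say neither what lesion aly1-2 carries nor whether the libraries of a group came from separate plants, so p-values measure only the spread between these libraries, which may be technical. Buds hold many cell types, and in such bulk RNA fewer cells of a type and less RNA per cell cannot be told apart.

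In RNA-directed DNA methylation, RNA polymerase V makes scaffold transcripts at its target loci, and small interfering RNAs bound to ARGONAUTE4 pair with them to bring in the methyltransferase DRM2. DRD1, a SNF2-type chromatin remodeller, DMS3, a protein like the hinge of structural maintenance of chromosomes proteins, and RDM1, a small protein that binds methylated DNA, form the DDR complex, which polymerase V needs to reach chromatin. KTF1 is a relative of the elongation factor SPT5 that binds both ARGONAUTE4 and RNA, RDM4 is an IWR1-like factor that associates with RNA polymerases, and IDN2 is a double-stranded RNA binding protein that forms a complex with FDM1 or FDM2. MORC1 and MORC6 are GHKL-type ATPases that keep methylated loci silent, and MORC1 is also known from defence against pathogens.

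Some of these genes resemble each other so closely that reads cannot always be placed. The coding sequences of FDM1 and FDM2 were 96% identical over their aligned bases. Their longest identical run was 268 bp in the spliced coding sequence and 148 bp within an exon. The run of 148 bp stands in capitals in the windows that follow, on the gene strand of TAIR10.1, within a coding exon of FDM1 at chr1:5467431-5467598 (+) and of FDM2 at chr4:169417-169584 (+). A read that falls inside either run belongs equally to both genes.
FDM1: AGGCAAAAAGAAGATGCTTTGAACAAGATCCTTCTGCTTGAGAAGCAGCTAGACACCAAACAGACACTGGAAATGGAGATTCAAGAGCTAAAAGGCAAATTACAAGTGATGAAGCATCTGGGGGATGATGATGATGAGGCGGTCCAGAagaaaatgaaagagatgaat
FDM2: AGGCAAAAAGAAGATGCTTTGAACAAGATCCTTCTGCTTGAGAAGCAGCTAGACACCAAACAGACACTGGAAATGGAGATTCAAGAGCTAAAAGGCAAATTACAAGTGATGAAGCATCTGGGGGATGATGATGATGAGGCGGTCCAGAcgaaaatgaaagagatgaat
Both genes had counts that were not whole numbers in the same 5 of the 14 libraries, so their single values are less certain than their sum.

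MORC1 lies in tandem with MORC2 (AT4G36280) and AT4G36270 on chromosome 4. Its coding sequence was 86.8% identical to that of MORC2, with a longest shared run of 74 bp, and 84.2% identical to that of AT4G36270, with a longest shared run of 53 bp. The windows around these runs are on the minus strand of TAIR10.1, at chr4:17171559-17171657 for MORC1, chr4:17167522-17167620 for MORC2 and chr4:17163304-17163396 for AT4G36270, with the run shared with MORC1 in capitals.
MORC1: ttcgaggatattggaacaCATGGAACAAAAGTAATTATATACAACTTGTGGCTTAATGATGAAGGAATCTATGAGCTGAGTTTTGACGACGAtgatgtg
MORC2: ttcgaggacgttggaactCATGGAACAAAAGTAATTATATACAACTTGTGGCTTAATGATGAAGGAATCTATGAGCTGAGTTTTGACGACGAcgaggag
AT4G36270: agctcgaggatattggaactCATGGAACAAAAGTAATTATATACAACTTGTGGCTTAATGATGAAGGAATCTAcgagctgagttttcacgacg
Counts of MORC1 were not whole in 7 libraries, of which 4 also had a count of AT4G36270 that was not whole and 1 a count of MORC2. Counts of FDM1 and of FDM2 were also not whole in 4 of these 7. The number of libraries therefore does not tell whether MORC1 and AT4G36270 shared reads, which was not tested. IDN2 was farther from its relatives, at 58.6% identity to FDM1 and 70.4% to FDM3, as were MORC1 and MORC6 at 63.1% identity and KTF1 and its relative AT4G08350 (GTA2, an SPT5 gene) at 61.8%.

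Library totals ran from 7.231 to 12.74 M counts (M, 1e6). Ribosomal RNA took 49.4% to 60.5% and plastid genes 15.2% to 20.3% of the counts in the cytoplasmic libraries. With mitochondrial counts also set aside, 2.1 to 3.24 M counts were left on other nuclear genes, against at least 6.21 M in every other library. ALY1, the mutated gene, fell from 112 ± 6.95 to 17.4 ± 3.12 CPM (SD, n = 3 each) in total RNA, with a log2 fold change of −2.69 (adjusted p = 0.000319). Its log2 fold change was −2.99 in nuclear RNA (adjusted p = 0.0121). In cytoplasmic RNA it was −1.52, without overlap but not under 0.05 (adjusted p = 0.369, all by edgeR). All 7 floral bud markers were detected in every library, with a summed level of 653 to 728 CPM in wild-type total RNA and 827 to 860 CPM in aly1-2 total RNA. Of these 7, AG, AP1, AP3 and SEP3 were higher in every aly1-2 total library than in any wild-type one. PI, LFY and STM overlapped between genotypes there, at log2 fold changes of 0.09, −0.04 and −0.29. None of the 7 had an adjusted p under 0.05 by edgeR in total RNA. The 3 mature pollen markers summed to 885 to 1350 CPM in wild-type and 561 to 2360 CPM in aly1-2 total RNA. The 3 anther tapetum markers summed to 40.9 to 52.6 CPM in wild-type and 53.3 to 62.4 CPM in aly1-2 total RNA, and A9 among them did not overlap between genotypes. Of the 2 root markers, CASP1 was at 0 in every total RNA library, while COBL9 was at 0.105 to 0.783 CPM in wild type and 0.625 to 2.14 CPM in aly1-2.

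Per kilobase of exon, the wild-type total RNA levels of the 10 genes spanned a wide range, led by IDN2 at 32.8 ± 3.19 and RDM4 at 32.3 ± 3.35 CPM per kb (SD, n = 3), which did not differ beyond their spread. KTF1 followed at 21.9 ± 0.24 CPM per kb and FDM1 at 18.1 ± 1.38 CPM per kb, and their libraries did not overlap. MORC1 at 9.56 ± 0.172, FDM2 at 8.91 ± 0.553 and DMS3 at 8.88 ± 0.812 CPM per kb could not be told apart by their spread. RDM1 at 4.37 ± 0.306 and MORC6 at 4.13 ± 0.138 CPM per kb were also within each other's range, and DRD1 was the lowest at 2.68 ± 0.397 CPM per kb. Within the DDR complex the remodeller was thus below both of its partners on this scale.

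The place of DMS3 and RDM1 in that order depends on their gene models. Of the annotated exon bases of DMS3 54.6% are shared with AT3G49240 on the other strand, and only 30.7% of its exon bases are coding. For RDM1 68.4% are shared with AT3G22670 on the other strand, and 17.7% are coding. The same CPM, which includes reads outside the coding sequence, was also divided by the coding length. On that scale DMS3 was at 28.9 ± 2.64 and RDM1 at 24.7 ± 1.73 CPM per coding kb. FDM1 was at 24.7 ± 1.88 and KTF1 at 23.8 ± 0.261 CPM per coding kb. Of the exon bases of FDM1 73.5% and of KTF1 92.1% are coding, so this scale raises DMS3 and RDM1 more. The sources used here do not give how strand was treated in counting, so reads of these genes and of their partners on the other strand may not have been separated.

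**Figure D1:**
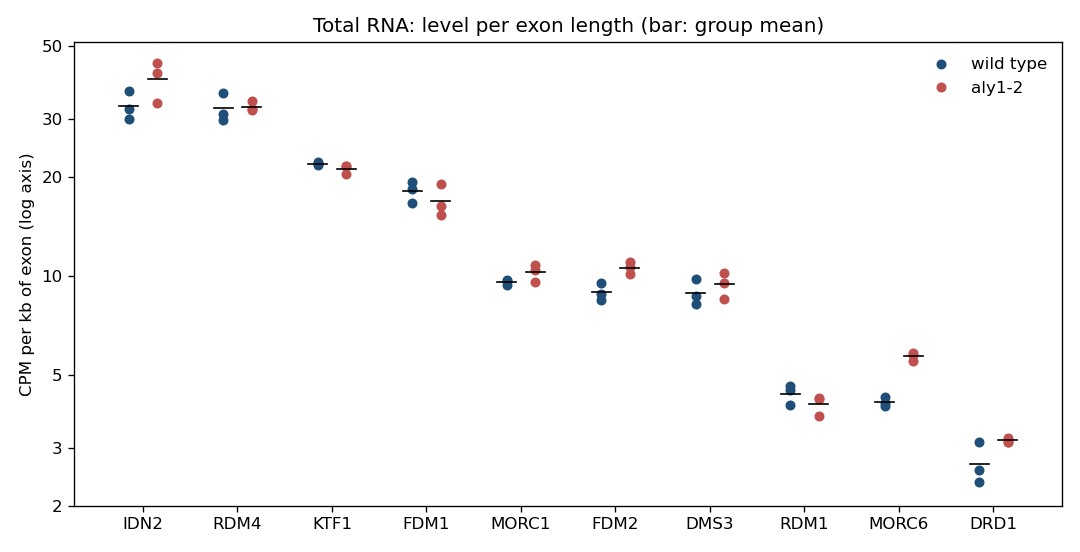
Level of each gene per exon length in total RNA. The vertical axis is CPM per kb of exon on a log axis, each point is 1 library (3 wild type in blue, 3 aly1-2 in red), and bars are group means; genes are ordered by the wild-type mean, from IDN2 at 32.8 to DRD1 at 2.68 CPM per kb.

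None of the 10 genes passed the test between aly1-2 and wild type in total RNA, where 0.475% of the 20431 genes tested did (97 genes, edgeR's quasi-likelihood test with adjusted p under 0.05). At an unadjusted p under 0.05 there were 2 of 10, MORC6 and FDM2, against 14.6% of all genes, and DESeq2 called 0 of 10. The median log2 fold change of the 10 was 0.09, beside 0.01 for all genes tested. Groups did not overlap for 3 genes that were higher in aly1-2 (DRD1, FDM2 and MORC6) and 1 that was lower (KTF1), while 9.24% of all genes lay apart in the higher and 10.8% in the lower direction.

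Among the DDR complex genes, DRD1 stood at 9.96, 8.19 and 7.50 CPM in wild-type total RNA against 9.99, 9.96 and 10.2 CPM in the mutant. The highest wild-type library equalled the lowest of aly1-2 to the digits printed, so the groups were apart by almost nothing (log2 fold change 0.24, SE 0.16, adjusted p = 0.524). With all 14 libraries scaled together the DRD1 groups overlapped, with 6.2 CPM in wild-type replicate 1 above 6.16 CPM in aly1-2 replicate 1. DMS3 read 33.7, 35.6 and 40.2 CPM in wild type against 35.0, 42.0 and 39.0 CPM in the mutant, which overlapped (0.08, SE 0.11, adjusted p = 0.773). RDM1 was at 11.2, 12.8 and 12.4 CPM against 10.4, 11.8 and 11.7 CPM, also overlapping (−0.11, SE 0.13, adjusted p = 0.738). The 95% intervals of these log2 fold changes reached from −0.12 to 0.60 for DRD1, from −0.18 to 0.34 for DMS3 and from −0.40 to 0.19 for RDM1.

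RDM4 and KTF1, the factors that travel with the polymerase, had the smallest differences in total RNA. The wild-type libraries held RDM4 at 45.9, 43.7 and 53.1 CPM, those of aly1-2 at 47.1, 47.1 and 50.1 CPM, with a log2 fold change of 0.02 (95% interval −0.22 to 0.25, adjusted p = 0.962). KTF1 had 106, 106 and 108 CPM in wild type against 99.2, 105 and 105 CPM in the mutant. Every mutant library of KTF1 was below every wild-type one, by a log2 fold change of −0.05 (95% interval −0.25 to 0.15, adjusted p = 0.828). With all 14 libraries scaled together the KTF1 groups overlapped, at 66 to 67.6 CPM in wild-type and 61.1 to 66.5 CPM in aly1-2 total RNA.

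For IDN2 wild type gave 91.1, 75.3 and 80.8 CPM, and aly1-2 gave 84.2, 104 and 111 CPM. The mutant libraries were spread over more than the difference between group means, with replicate 1 inside the wild-type range (log2 fold change 0.27, SE 0.13, adjusted p = 0.381). FDM1 was at 50.1, 43.1 and 47.7 CPM against 39.6, 42.2 and 49.2 CPM and overlapped between genotypes (−0.11, SE 0.11, adjusted p = 0.702). Its near-copy FDM2 had 22.0, 20.4 and 19.5 CPM in wild type against 24.7, 23.4 and 25.5 CPM in aly1-2, higher in all 3 mutant libraries (0.25, SE 0.11, adjusted p = 0.331). With the counts of FDM1 and FDM2 added together, a comparison chosen after seeing the data, the log2 fold change was 0.01 (SE 0.10, adjusted p = 0.972).

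MORC6 had the largest total RNA difference of the 10 genes. Wild-type libraries read 11.3, 10.8 and 10.6 CPM and aly1-2 libraries 15.4, 14.6 and 15.2 CPM, so that the lowest mutant library was above the highest wild-type one by far more than the spread within either group. The log2 fold change was 0.46 (SE 0.12, 95% interval 0.20 to 0.73), but the adjusted p over all genes was 0.139 and ran from 0.0949 to 1 over the alternatives. The summed floral bud and anther tapetum markers, given above, were also higher in every aly1-2 total library than in any wild-type one. Not every marker rose, as LFY and STM had negative log2 fold changes. The part of these sums in the MORC6 difference was not tested. MORC1, its ATPase partner, had 22.2, 22.9 and 22.8 CPM in wild type against 22.6, 24.7 and 25.5 CPM in aly1-2, which overlapped (0.10, SE 0.10, adjusted p = 0.678).

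**Figure D2:**
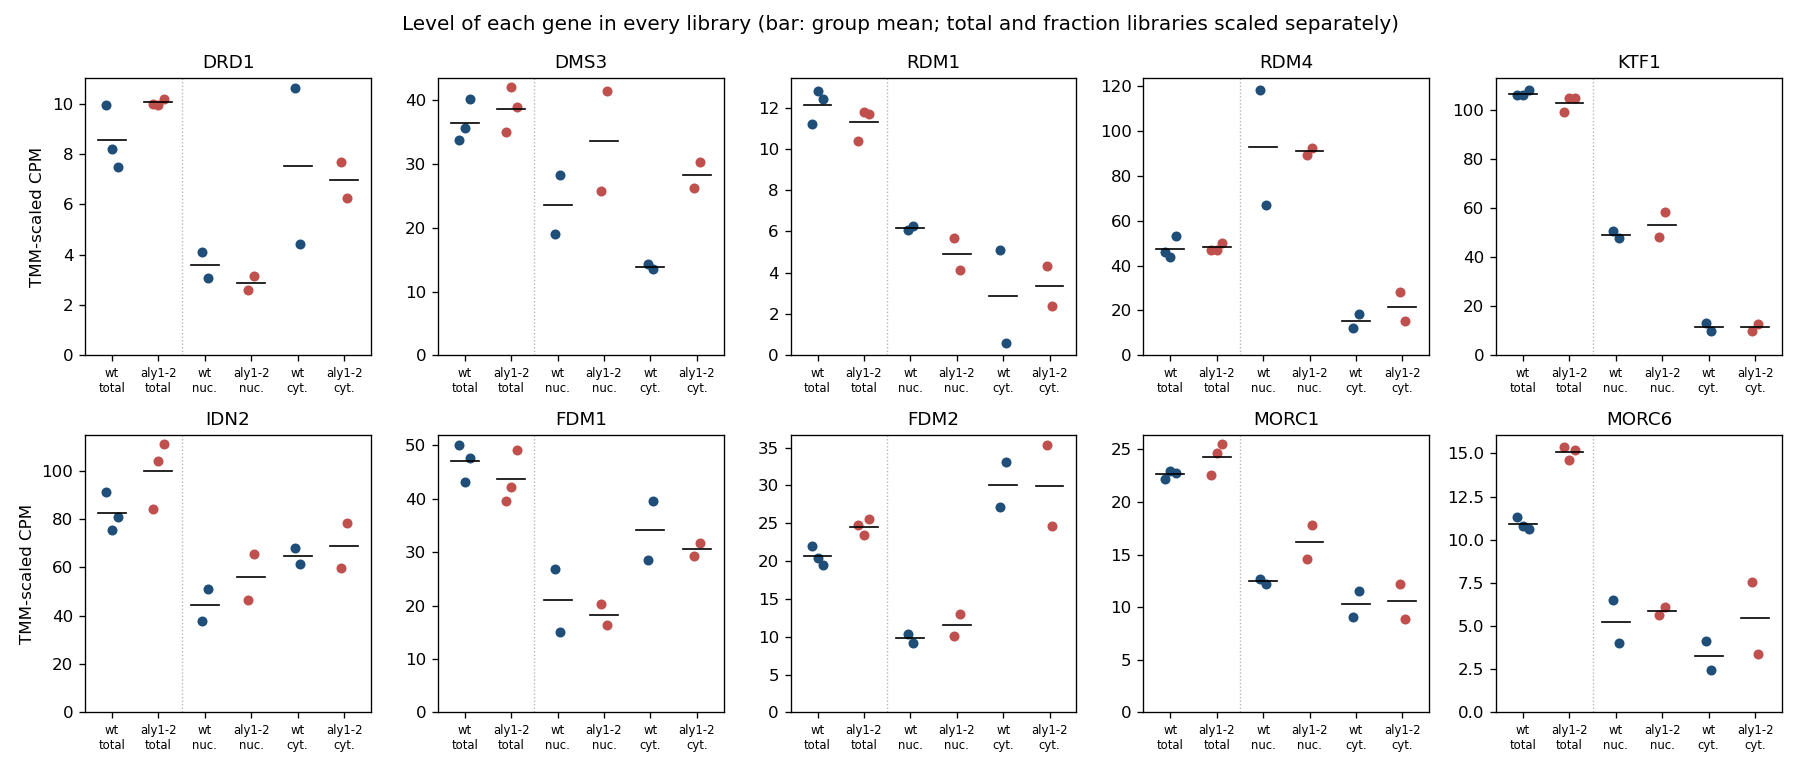
Level of each gene in every library. The vertical axis is TMM-scaled CPM, each point is 1 library (blue wild type, red aly1-2) and bars are group means; total libraries were scaled apart from nuclear (nuc.) and cytoplasmic (cyt.) ones. In total RNA the MORC6 groups lie apart, at 10.6 to 11.3 and 14.6 to 15.4 CPM, and in the fractions RDM4 and KTF1 are high in the nucleus and FDM2 in the cytoplasm.

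In nuclear RNA 0 of the 10 genes passed between the genotypes by edgeR's quasi-likelihood test, against 0.0381% of the 20971 genes tested (3 higher and 5 lower, or 5 and 5 with DESeq2 size factors). None had an unadjusted p under 0.05, which 2.26% of all genes had, and DESeq2 called none. All 10 adjusted p values were 1. MORC1 was higher in both mutant nuclear libraries, at 14.6 and 17.8 CPM against 12.7 and 12.2 CPM in wild type (log2 fold change 0.38, SE 0.34), and RDM1 was lower, at 5.69 and 4.13 CPM against 6.06 and 6.28 CPM (−0.33, SE 0.66). These were 2 of 10 genes without overlap, where 27.5% of all genes showed none. The intervals were wide, with standard errors from 0.31 to 0.66 on the log2 scale, so a change of the size seen for MORC6 in total RNA was not detectable at this spread.

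In cytoplasmic RNA 0 of the 10 passed, against 0.0143% of all genes tested (3 genes), and DESeq2 called none. ALY1, the mutated gene, did not pass there either, as given above. Of the 10, DMS3 was the 1 gene with an unadjusted p under 0.05 by edgeR, a class that held 9.09% of all genes. Its cytoplasmic libraries read 14.3 and 13.5 CPM in wild type against 26.3 and 30.3 CPM in aly1-2, so that the lower mutant library was above both wild-type ones. The log2 fold change was 1.02 (SE 0.36, 95% interval 0.26 to 1.79), with an adjusted p of 0.442 that ran from 0.0665 to 0.563 over the alternatives. AT3G49240, which overlaps DMS3 on the other strand, went from 12.2 and 12.4 CPM to 14.6 and 19.3 CPM (0.46, SE 0.32, adjusted p = 0.698). Both leaf markers, CAB3 and RBCS1A, were also higher in both mutant cytoplasmic libraries, with summed levels of 1500 to 1520 CPM in wild type and 1900 to 2360 CPM in aly1-2, and the part of either in the DMS3 difference was not tested. DMS3 was the only 1 of the 10 whose cytoplasmic groups did not overlap, against 35.4% of all genes.

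The other cytoplasmic values overlapped between genotypes. RDM1 had 5.10 and 0.613 CPM in wild type, which were 26 and 4 reads, against 4.33 and 2.41 CPM in aly1-2, so its cytoplasmic level rests on few reads. MORC6 was at 4.12 and 2.45 CPM against 7.54 and 3.37 CPM, a log2 fold change of 0.76 (SE 0.57, adjusted p = 0.715) that was 0.08 without aly1-2 replicate 1 and 1.29 without aly1-2 replicate 2. The remaining 7 genes had log2 fold changes from −0.16 for FDM1 to 0.49 for RDM4.

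**Figure D3:**
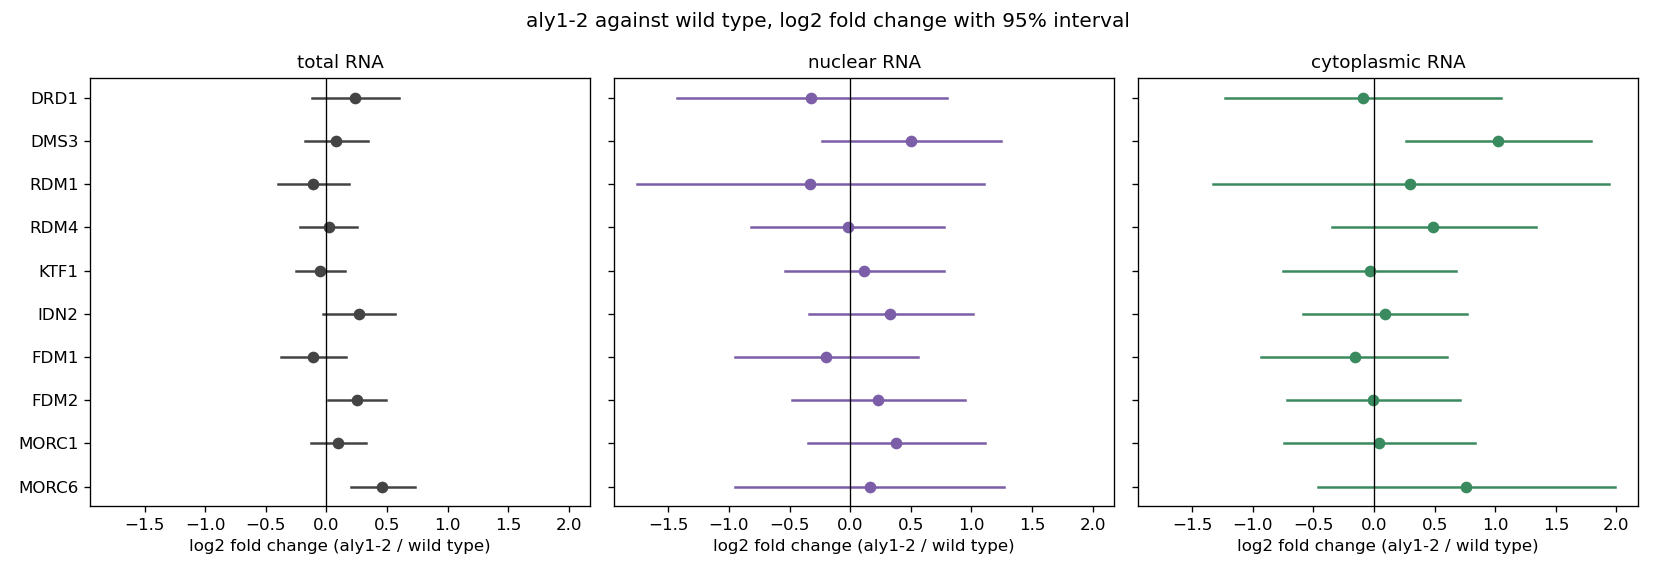
Log2 fold change of aly1-2 against wild type for each gene in total, nuclear and cytoplasmic RNA. Points are edgeR estimates and lines their 95% intervals, from 3 libraries per genotype in total RNA and 2 in each fraction; MORC6 at 0.46 in total RNA and DMS3 at 1.02 in cytoplasmic RNA have intervals that stay above 0, as does that of FDM2 in total RNA from 0.01, and the fraction intervals are the wider ones.

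More of the 10 genes passed between compartments than between genotypes. A difference between nuclear and cytoplasmic libraries here is one of shares of each scaled library, not of molecules per cell. Plastid genes took 8.56% to 11.3% of the counts in nuclear libraries, against 5.01% to 6.77% in total RNA. Mitochondrial genes took 0.935% to 1.34%, against 0.493% to 0.803%. The purity of the fractions was not tested. In wild type RDM4 and KTF1 were higher in nuclear RNA and FDM2 was higher in cytoplasmic RNA, which made 3 of 10 past the threshold, against 19.1% of all genes tested (11.1% higher and 8.03% lower in the nucleus). In aly1-2 the count was also 3 of 10, the same 3 genes in the same directions, against 18.9% of all genes (11.1% higher and 7.80% lower). The median log2 fold change of the 10 was 0.48 in wild type and 0.17 in aly1-2, beside 0.05 and 0.11 for all genes.

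RDM4 read 118 and 67.1 CPM in the wild-type nucleus against 12.4 and 18.5 CPM in the cytoplasm. In aly1-2 it was at 89.4 and 92.2 CPM in the nucleus and at 28.2 and 15.2 CPM in the cytoplasm. Every nuclear library was thus above every cytoplasmic one, with a log2 fold change of 2.57 in wild type (SE 0.40, adjusted p = 0.00122) and 2.06 in aly1-2 (SE 0.39, adjusted p = 0.00395). Without aly1-2 cytoplasmic replicate 2 the second of these was 1.67 and missed the threshold (adjusted p = 0.0575).

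KTF1 was at 50.6 and 47.8 CPM in wild-type nuclear and 13.3 and 10.1 CPM in wild-type cytoplasmic RNA. In the mutant it was at 48.1 and 58.4 CPM in the nucleus and 9.94 and 13.0 CPM in the cytoplasm. Its log2 fold change was 2.07 in wild type (SE 0.33, adjusted p = 0.00133) and 2.22 in aly1-2 (SE 0.33, adjusted p = 0.000907), and it passed in both genotypes under every alternative run, with adjusted p of at most 0.0249.

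FDM2 went the other way, at 10.4 and 9.22 CPM in wild-type nuclear against 27.1 and 33.1 CPM in wild-type cytoplasmic RNA. In aly1-2 it was at 10.1 and 13.0 CPM in the nucleus and 35.3 and 24.6 CPM in the cytoplasm. The log2 fold change was −1.62 in wild type (SE 0.34, adjusted p = 0.00627) and −1.38 in aly1-2 (SE 0.34, adjusted p = 0.0139). In wild type it missed the threshold without cytoplasmic replicate 2 (−1.36, adjusted p = 0.0703), and in aly1-2 without nuclear replicate 1 (−1.19, adjusted p = 0.104) or cytoplasmic replicate 1 (−1.06, adjusted p = 0.118).

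FDM1 was at 26.9 and 15.1 CPM in the nuclear and 28.6 and 39.5 CPM in the cytoplasmic libraries of wild type, and at 20.3 and 16.3 CPM against 29.2 and 31.8 CPM in aly1-2. It was also lower in every nuclear than in any cytoplasmic library of its genotype, without passing (−0.70 and −0.73, adjusted p = 0.177 and 0.162). The summed counts of FDM1 and FDM2 do not depend on how reads were divided between them. They were lower in the nucleus, with a log2 fold change of −1.06 in wild type (SE 0.32, edgeR adjusted p = 0.0344). In aly1-2 it was −1.02 (SE 0.32, edgeR adjusted p = 0.0405). This sum was chosen after seeing the data and fitted only with the main settings. Its dependence on single libraries was not tested. IDN2, the partner of FDM1 and FDM2, was at 37.9 and 51.0 CPM in nuclear RNA of wild type. In cytoplasmic RNA of wild type it was at 67.9 and 61.6 CPM (−0.54, SE 0.32, edgeR adjusted p = 0.244). In aly1-2 IDN2 was at 46.7 and 65.5 CPM against 59.8 and 78.3 CPM, which overlapped (−0.30, SE 0.32, adjusted p = 0.538).

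The DDR complex genes did not share a direction. DRD1 was at 4.11 and 3.07 CPM in nuclear and 10.6 and 4.44 CPM in cytoplasmic RNA of wild type, and at 2.60 and 3.16 CPM against 7.70 and 6.26 CPM in aly1-2. Its nuclear libraries lay below its cytoplasmic ones in both genotypes, without passing (−1.05, SE 0.52, adjusted p = 0.172 in wild type; −1.28, SE 0.53, adjusted p = 0.108 in aly1-2). The wild-type value was −0.26 without cytoplasmic replicate 1, the library at 10.6 CPM. DMS3 read 19.0 and 28.3 CPM in the wild-type nucleus, above its cytoplasmic libraries (0.77, SE 0.35, adjusted p = 0.14), and at 25.8 and 41.4 CPM in the aly1-2 nucleus, where it overlapped them (0.25, SE 0.34, adjusted p = 0.648). RDM1 gave 1.15 (SE 0.72, adjusted p = 0.278) in wild type and 0.52 (SE 0.71, adjusted p = 0.64) in aly1-2. Without wild-type cytoplasmic replicate 1 the wild-type value of RDM1 was 3.36 (adjusted p = 0.0274), which rests on the 4 reads of the other library, and without replicate 2 it was 0.38.

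Neither MORC gene passed between compartments. MORC1 was higher in both nuclear libraries than in either cytoplasmic one of its genotype, at 12.7 and 12.2 against 9.03 and 11.5 CPM in wild type (0.28, SE 0.35, adjusted p = 0.613), and at 14.6 and 17.8 against 12.2 and 8.91 CPM in aly1-2 (0.61, SE 0.35, adjusted p = 0.237). MORC6 read 6.49 and 4.04 CPM in the wild-type and 5.63 and 6.13 CPM in the aly1-2 nucleus, which overlapped its cytoplasmic libraries (0.69, SE 0.55, adjusted p = 0.403; 0.09, SE 0.53, adjusted p = 0.927). Nuclear and cytoplasmic libraries did not overlap for 9 of the 10 genes in wild type, against 62.6% of all genes, and for 6 of 10 in aly1-2, against 63.5%.

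**Figure D4:**
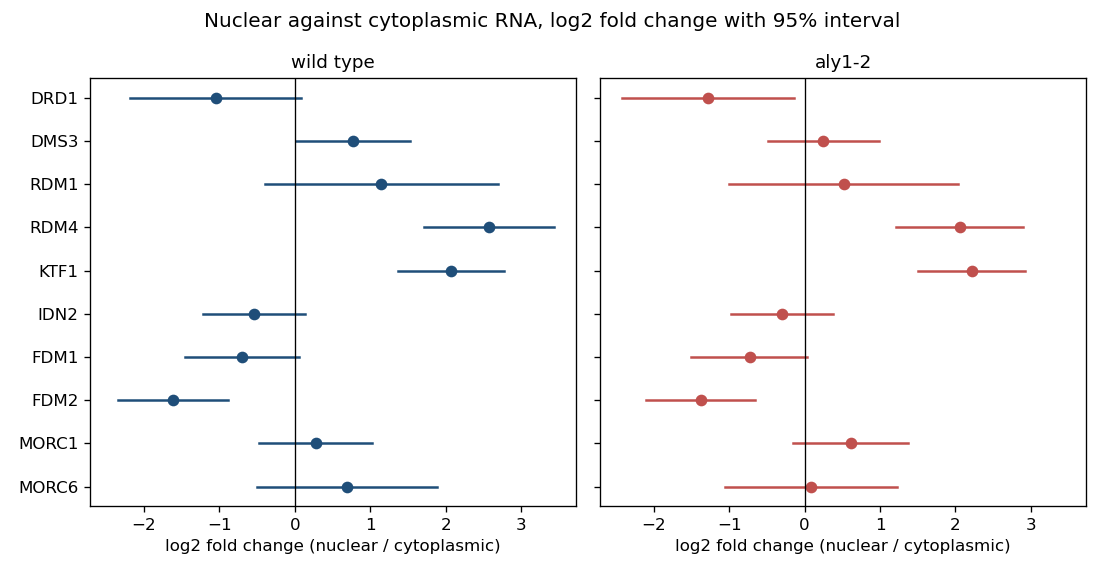
Log2 fold change of nuclear against cytoplasmic RNA for each gene in wild type and in aly1-2. Points are edgeR estimates and lines their 95% intervals, from 2 libraries per group; RDM4 and KTF1 are at 2.06 or more and FDM2 at −1.38 or less in both genotypes.

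The change of the nuclear to cytoplasmic ratio in aly1-2 was tested as the interaction of genotype and compartment, which is the question an mRNA export mutant poses. None of the 10 genes passed, and 0% of the 20971 genes tested did. At an unadjusted p under 0.05 edgeR had 0 of the 10 and 3.36% of all genes, and DESeq2 called 0. The log2 differences of the ratio ran from −0.63 for RDM1 to 0.33 for MORC1, with a median of −0.13 beside 0.02 for all genes. The standard errors were 0.45 to 1.01, and the narrowest 95% intervals were those of KTF1 (−0.83 to 1.12) and IDN2 (−0.72 to 1.20). For RDM4 the difference was −0.52 (95% interval −1.68 to 0.64), for FDM2 0.24 (−0.77 to 1.25) and for DMS3 −0.52 (−1.58 to 0.54), all with adjusted p = 1.

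Over the 10 genes, the nuclear to cytoplasmic log2 fold change had a Spearman correlation with the number of exons of 0.28 in wild type and 0.42 in aly1-2, and with exon length of 0.20 and 0.15. These are descriptions over 10 genes read from the same libraries. KTF1 has 19 exons in its longest transcript and RDM4 10. MORC6 with 20 and MORC1 with 18 had positive log2 fold changes in both genotypes, without passing. The part of exon number in these values was not tested. 

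The nearest relatives were set beside these genes from a list of 11. In total RNA 0 of 11 passed, against 0.475% of all genes, and 3 had an unadjusted p under 0.05 by edgeR, against 14.6%. The 3 were FDM3 at 0.31 (SE 0.11, adjusted p = 0.247), FDM4 at 0.33 (SE 0.14, adjusted p = 0.315) and AT4G24970, a MORC-family gene, at 0.40 (SE 0.11, adjusted p = 0.164). AT4G24970 had 17.1, 16.7 and 18.6 CPM in wild type against 24.6, 22.8 and 22.0 CPM in aly1-2, without overlap, as MORC6 was. No relative passed between the genotypes in nuclear or cytoplasmic RNA or in the ratio, against 0.0381%, 0.0143% and 0% of all genes. MORC2, the tandem neighbour of MORC1, was at 1.58 to 3.19 CPM in wild-type total RNA, far under MORC1 at 22.2 to 22.9 CPM although their exon lengths are alike, at 2239 and 2366 bp.

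Between compartments no relative passed in the direction of FDM2. Of the 9 tested in wild type 6 were higher in nuclear RNA, against 11.1% of all genes, and 0 lower, against 8.03%. The 6 were FDM5, MORC2, AT5G50780, AT4G24970, GMI1 (a relative of DMS3) and AT4G08350. In aly1-2 2 of the 9 were higher in nuclear RNA, against 11.1% of all genes, and 0 lower, against 7.8%. They were FDM5 and AT4G24970, and the call of FDM5 was lost without cytoplasmic replicate 1. FDM5, of the same family as FDM2, was at 131 and 147 CPM in nuclear against 59.6 and 48.9 CPM in cytoplasmic RNA of wild type (1.36, SE 0.31, adjusted p = 0.00927), and missed the threshold without cytoplasmic replicate 2 (adjusted p = 0.0723). AT4G08350, the SPT5 relative of KTF1, was at 193 and 121 against 40.4 and 90.7 CPM (1.26, SE 0.40, adjusted p = 0.0424), a call that 4 of 15 alternatives ended. Leaving out 1 library also ended the calls of MORC2 and AT5G50780, while those of AT4G24970 in both genotypes and of GMI1 held under every alternative.

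Of 27 other genes of RNA-directed DNA methylation, 1 rose and 0 fell in total RNA of aly1-2, against 0.206% and 0.269% of all genes. It was AGO9, an ARGONAUTE of the germline, at 0.72 (SE 0.10, adjusted p = 0.0357), and 7 of 12 alternatives ended that call, among them leaving out any 1 wild-type library. The median log2 fold change of the 27 was 0.01, and 8 of them had an unadjusted p under 0.05 by edgeR, against 14.6% of all genes. In nuclear RNA, cytoplasmic RNA and the ratio 0 of 27 passed, against 0.0381%, 0.0143% and 0% of all genes. At an unadjusted p under 0.05 there were 1, 4 and 0, against 2.26%, 9.09% and 3.36% of all genes.

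Between compartments 7 of these 27 were higher in nuclear RNA of wild type, against 11.1% of all genes, and 0 were lower. They were NRPE1, the largest subunit of polymerase V (2.49, adjusted p = 0.0278), the chromatin remodeller genes CLSY1 (2.66, adjusted p = 0.00303) and AT1G05490 (2.63, adjusted p = 0.00149), the Dicer gene DCL3 (1.79, adjusted p = 0.0343), AGO4 (2.42, adjusted p = 0.000464), AGO9 (2.47, adjusted p = 0.000706) and the histone deubiquitinase gene UBP26 (2.36, adjusted p = 0.00108). In aly1-2 6 of the 27 were higher in the nucleus, all but DCL3 of those named, against 11.1% of all genes. The median over the 27 was 0.46 in wild type and 0.56 in aly1-2. Leaving out 1 library ended the wild-type calls of NRPE1 and DCL3 and the aly1-2 calls of NRPE1 and UBP26, while those of CLSY1, AT1G05490, AGO4 and AGO9 held under every alternative in both genotypes. Of the 27, 17 had a positive and 10 a negative log2 fold change in each genotype, where 51.7% of all genes in wild type and 53.5% in aly1-2 were positive. Higher in the nucleus without overlap were 12 in wild type and 12 in aly1-2, against 33.3% and 35.8% of all genes. Lower in the nucleus without overlap were 3 in wild type and 2 in aly1-2, against 29.3% and 27.7% of all genes. The 0 lower calls among the 27 stand beside 8.03% of all genes in wild type and 7.80% in aly1-2.

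The gene whose pattern over the 14 libraries was most like each of the 10 was taken from 14551 genes with a mean of at least 5 CPM, by the Pearson correlation of log2(CPM + 0.5). For KTF1 it was PCS1 (r = 0.99), for RDM4 PPAN (0.98), for FDM2 WIT2 (0.98) and for IDN2 UCP5 (0.97). DMS3 was most like GATA27 (0.97), RDM1 like AT1G12730 (0.97), FDM1 like AT3G52170 (0.95), DRD1 like LPA66 (0.94), MORC1 like AT2G20495 (0.94) and MORC6 like SDG16 (0.91). All points share the libraries, their depth and the contrast between compartments, so these values are descriptions only.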

How the data were processed

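The submitters' processing notes name STAR 2.5.1b, featureCounts, Subread 1.6.1 and the build TAIR10 for the 14 poly(A)+ libraries. The authors deposited estimated counts (expected counts), neither scaled nor pooled, in which some values carry fractions. The sources used here do not give how strand and reads with several places were treated. Counts were rounded to whole numbers, which the planned tests allowed for.

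In edgeR 4.0.16 under R 4.3.3, genes kept by filterByExpr (at least 10 counts in enough libraries, total of at least 15) were TMM-scaled and compared by quasi-likelihood F-tests. Adjustment was by Benjamini-Hochberg over all genes, at 0.05. Total RNA used the 6 total libraries. The 8 fraction libraries, fitted together, gave all other comparisons. These fits, each with 4 residual degrees of freedom and first tested on simulated data, gave every adjusted p value not credited to DESeq2. SE is the log2 fold change divided by the square root of F, and 95% intervals use the fit's total degrees of freedom. CPM, counts per 1e6 counts, was TMM-scaled separately for total and fraction libraries. Lengths, positions and sequences came from RefSeq's TAIR10.1, which 37051 of 37336 genes matched by identifier. DESeq2 1.42.0 was an alternative.

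The 10 genes, the lists and the tests were chosen with earlier results of these data known. All 10 and all relatives tested were open to naming. Of the other pathway genes, those that passed were named. AT3G49240 and AT3G22670 were added after seeing the annotation. No replicate pair was a repeated library (chi-square per degree of freedom at least 5.78).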

Additional observations from a re-analysis of the deposited data

How the results depend on the processing

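Of the 10 genes, 0 were called between genotypes or in the ratio under any alternative run, and 2 to 4 between compartments. The count over all genes depended more on the settings. In total RNA it was 97, and 550 with DESeq2's Wald test, 428 with no filter on low counts, 41 with all 14 libraries in 1 fit and 16 to 1639 leaving out 1 library (1639 without aly1-2 replicate 1). In nuclear RNA it was 8, and 30, 143 and 17 under the first 3 of these, 0 with the 4 libraries compared alone and 3 to 157 leaving out 1 library. In cytoplasmic RNA it was 3, and 35, 175, 204, 11 and 0 to 52. Between compartments it was 4003 in wild type (7785 in 1 fit of 14, 1610 to 4168 leaving out 1 library) and 3974 in aly1-2 (7714, 1767 to 3997). For the ratio it was 0 (5 with no filter, 0 to 3 leaving out 1 library). Deviations of same-numbered libraries correlated at r = −0.26 to 0.29 in total RNA, where not every library correlated best with its own number. In the fractions r was 0.20 between the nuclear libraries of the genotypes, 0.25 between nuclear and cytoplasmic libraries of aly1-2 and −0.03 to 0.03 for the other group pairs. As not every pair was over 0.1, the numbers were not taken to pair libraries. With the replicate number as a block the counts were 20 in total, 19 in nuclear and 9 in cytoplasmic RNA, and no call of the 10 genes changed. In 1 fit of 14 libraries DMS3 (0.83, adjusted p = 0.0232) and DRD1 (−1.30, adjusted p = 0.0162) passed between compartments, in wild type and aly1-2. The cause was not tested.

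Of the 47 values that changed sign, 0 were past the threshold. The block gave RDM4 0.02 in nuclear RNA. In cytoplasmic RNA KTF1 was at 0.01 with DESeq2 size factors, DESeq2 and 1 fit of 14 and 0.02 with no filter, and FDM2 at 0.04 under the first 3 and 0.05 and 0.01 with no filter and with 4 libraries. Adding FDM1 and FDM2 gave 0.01 in total and −0.05 in nuclear RNA and 0.04 for the ratio. Leaving out 1 library, values of sign-changing genes ran in cytoplasmic RNA from −0.51 to 0.68 (DRD1), −0.36 to 0.17 (FDM1), −0.27 to 0.30 (FDM2), −0.04 to 0.30 (IDN2), −0.16 to 0.19 (KTF1), −0.19 to 0.32 (MORC1), −0.48 to 2.49 (RDM1) and −0.01 to 0.93 (RDM4). In nuclear RNA they ran from −0.53 to 0.28 (FDM1), −0.02 to 0.26 (KTF1), −0.12 to 0.54 (MORC6) and −0.35 to 0.43 (RDM4), in total RNA from −0.04 to 0.09 (RDM4), and between compartments of aly1-2 from −0.11 to 0.57 (DMS3) and −0.38 to 0.83 (MORC6). Ratio values ran from −1.02 to 0.17 (DRD1), −0.39 to 0.44 (FDM1), −0.09 to 0.48 (FDM2), −0.01 to 0.49 (IDN2), −0.10 to 0.29 (KTF1), −1.15 to 0.06 (MORC6) and −2.84 to 0.14 (RDM1). Where a library left out leaves 1 in its group, that library is assumed to vary like the others.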
